A study of Mus musculus with 7 samples.

Results

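The genes described here are the mouse Fc gamma receptors Fcgr1, Fcgr2b, Fcgr3 and Fcgr4, their shared signalling chain Fcer1g, and the neonatal Fc receptor Fcgrt. They are 6 of the 55401 genes in the deposited count table, matched by symbol, and all 6 were among the 19199 genes abundant enough to be tested. The 6 were selected on measured values, the library-size-scaled counts of the ATG7 libraries against the EYFP libraries, since they were proposed with that difference in view. Their own differences between the groups are therefore given as descriptions, without a test.

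RNA was sequenced from CD11b-enriched microglia, the resident macrophages of the brain, taken from the dorsal hippocampus of C57BL/6 mice aged 6 to 8 weeks. Into the dorsal dentate gyrus of all mice AAV-RAM-Cre had been injected, which places Cre recombinase in neurons that were active in an experience (engram neurons). In the control group (4 libraries, EYFP 1 to 4) a second virus, AAV-Dio-EYFP, gave Cre-dependent expression of a fluorescent protein, and in the other group (3 libraries, ATG7 1 to 3) it was AAV-Dio-Atg7-Flag, which gave Cre-dependent expression of the autophagy enzyme ATG7. The virus was aimed at neurons and the RNA came from CD11b-enriched cells, so the comparison asks how microglia differ when nearby engram neurons overexpress ATG7. The labels do not say whether each library came from a separate mouse, and p-values measure only the spread between these libraries.

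Fc gamma receptors bind the constant part of IgG antibodies and let macrophages take up targets coated with them. The activating receptors carry no signalling motif of their own in the mouse and use the Fcer1g chain, which is phosphorylated by Src-family kinases and then recruits the kinase Syk to start phagocytosis and the oxidative burst. Fcgr2b is the inhibitory receptor, and Fcgrt is an intracellular receptor that pairs with B2m and returns IgG to the cell surface instead of degrading it.

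Fcgr4, Fcgr3, Fcgr2b and Fcer1g lie within 275.7 kb of chromosome 1, while Fcgr1 lies on chromosome 3 and Fcgrt on chromosome 7. Windows of 250 bases before each RefSeq start were searched, on both strands, for letters that STAT and IRF factors are known to bind, because both factors act on Fc receptor genes. The GAS letters TTCNNNGAA were found in the Fcgr1 window, where they covered bases -109 to -101 from the start, and in 7.02% of all 32851 promoter windows. The core of the interferon-stimulated response element, GAAA and GAAA with any pair of bases between, was found in the Fcgr4 window at bases -73 to -64, and in 2.98% of all windows. The sequences below are shown for these letters, in capitals, written 5′ to 3′ along the gene's strand. They come from RefSeq on GRCm38.p6, at chr1:171018676-171018925 on the plus strand for Fcgr4 and chr3:96293970-96294219 on the minus strand for Fcgr1.
Fcgr4 upstream: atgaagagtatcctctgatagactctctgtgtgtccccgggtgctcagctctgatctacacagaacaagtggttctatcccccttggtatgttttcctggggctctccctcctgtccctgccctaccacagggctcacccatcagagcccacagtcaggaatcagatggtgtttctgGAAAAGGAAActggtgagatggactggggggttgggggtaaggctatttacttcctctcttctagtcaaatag
Fcgr1 upstream: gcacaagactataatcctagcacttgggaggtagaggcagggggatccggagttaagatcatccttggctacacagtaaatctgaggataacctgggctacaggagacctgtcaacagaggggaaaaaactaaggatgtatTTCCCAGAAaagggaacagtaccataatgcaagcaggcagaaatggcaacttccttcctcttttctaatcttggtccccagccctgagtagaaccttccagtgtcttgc

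The windows of Fcgr2b, Fcgr3, Fcer1g and Fcgrt held neither TTCNNNGAA nor the response element core. The Fcgr2b window, chr1:170976072-170976321, and both Fcgr3 windows, within chr1:171059395-171059653, lay wholly inside the GENCODE spans of these genes. The bases before the GENCODE starts of Fcgr2b and Fcgr3 were therefore not searched. A wider GAS, with 4 bases between TTC and GAA, present in 5.85% of all windows, was in none of the 6 genes' windows. The ETS letters GGAA, which the macrophage factor PU.1 (Spi1) binds, were in the windows of all 6 genes, but also in 93.45% of all windows, and they overlap both the GAS match of Fcgr1 and the response element match of Fcgr4. The longer letters GAGGAA were in the windows of Fcgr1, Fcgr3 and Fcgr4 and in 23.25% of all windows. The C/EBP letters TTGCNNAA were in those of Fcgr3 and Fcgrt and in 9.56% of all windows. A match describes letters only, and whether a factor binds there was not measured.

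Fcgr2b and Fcgr3 also share coding sequence, which bears on how their reads can be counted. The longest identical run of their protein-coding GENCODE transcripts was 129 bases, all coding, and spans exons 3 and 4 of both genes. It is shown because a read inside it fits both genes equally.
Fcgr2b and Fcgr3 shared run: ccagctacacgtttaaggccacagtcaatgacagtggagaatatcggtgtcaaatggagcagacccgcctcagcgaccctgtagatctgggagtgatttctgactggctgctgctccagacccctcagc
The run lies within chr1:170966674-170968081 in Fcgr2b and chr1:171054167-171057792 in Fcgr3, both on the minus strand of GRCm38. Of all 50-base windows of exon sequence, 166 were shared, which is 2.92% of those of Fcgr2b and 9.58% of those of Fcgr3. Some of these 166 lay outside the run shown. No other pair among the 6 genes shared a 50-base window. How the counting treated reads that fit more than 1 gene is not given in the sources used here, so small differences between Fcgr2b and Fcgr3 are uncertain.

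The smallest library was EYFP 1 with 35934210 counts and the largest ATG7 2 with 55217119. The labelled cell type was checked with 9 microglia markers, whose summed level lay between 20140 and 24480 CPM (this is the count scaled to the library total, corrected by TMM, the trimmed mean of M values) in EYFP and between 19950 and 24460 CPM in ATG7. The libraries also held RNA of other cells: 8 choroid plexus markers summed to 55010 to 72540 CPM in EYFP and 46630 to 61330 CPM in ATG7, more than the microglia markers in every library, and all 8 had a log2 fold change below 0. Summed astrocyte markers were at 428 to 808 CPM, oligodendrocyte lineage markers at 248 to 576 CPM and neuron markers at 6.14 to 23.2 CPM over the 7 libraries. Endothelial markers summed to 520 to 810 CPM in EYFP and 580 to 1110 CPM in ATG7. Of the 8 endothelial markers, 7 had a log2 fold change above 0 and 1 below. The part of these cells in the values below was not tested. Atg7 itself was at 32.0 to 37.6 CPM in all 7 libraries. The series is titled as male, but EYFP 3 had 938.5 CPM of the X-inactivation transcript Xist against 0.151 to 0.574 CPM in the other libraries. The Y-linked gene Ddx3y was at 27.6 CPM in EYFP 3 and at 121 to 169 CPM in the others, so EYFP 3 held Xist and Y-linked RNA together and stood apart from the label. Without EYFP 3 the log2 fold changes of the 6 genes were 0.48 for Fcgr1, 0.25 for Fcgr3, 1.37 for Fcgr4, 0.41 for Fcgr2b, 0.24 for Fcer1g and -0.06 for Fcgrt, close to the values with it that follow. Over all genes tested, 0.755% passed an edgeR quasi-likelihood test at an adjusted p under 0.05, 0.688% as higher and 0.0677% as lower in ATG7.

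Among the activating receptors, Fcgr4 had the largest log2 fold change of the 6 genes, though its difference in CPM, 19.4, was below those of Fcgr1 (101.0), Fcgr3 (83.2) and Fcgr2b (77.2). Fcgr4 (ENSMUSG00000059089, chr1:171018920-171029761, plus strand) binds IgG2 subclasses with intermediate affinity. Its level was 13.44, 12.43, 10.40 and 10.04 CPM in EYFP 1 to 4 against 28.63, 32.31 and 32.02 CPM in ATG7 1 to 3. Every ATG7 library was above every EYFP library, and the lowest ATG7 value was 2.13 times the highest EYFP value. The means were 11.58 ± 1.63 CPM (n = 4, SD) in EYFP and 30.99 ± 2.04 CPM (n = 3, SD) in ATG7, a log2 fold change of 1.42 with a standard error (SE) of 0.112, or 2.68-fold. By the size of its log2 fold change Fcgr4 stood at rank 179 of the 19199 genes tested. Its deposited counts were between 409 and 1775 per library.

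Fcgr1 (ENSMUSG00000015947, chr3:96282909-96293969, minus strand) encodes the high-affinity IgG receptor CD64. It was measured at 291.5, 249.5, 278.3 and 252.1 CPM in EYFP 1 to 4 against 318.9, 379.8 and 408.6 CPM in ATG7 1 to 3. All ATG7 values were above all EYFP values, with ATG7 1 the nearest to the EYFP range. The means were 267.9 ± 20.5 CPM (n = 4, SD) and 369.1 ± 45.8 CPM (n = 3, SD), and the log2 fold change was 0.46 (SE 0.0994), or 1.38-fold.

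Fcgr3 (ENSMUSG00000059498, chr1:171051174-171064935, minus strand) encodes a low-affinity activating receptor that binds IgG in immune complexes. It was at 577.8, 542.4, 612.2 and 492.5 CPM in EYFP 1 to 4 against 614.5, 627.6 and 676.2 CPM in ATG7 1 to 3. The groups did not overlap, but only just, since ATG7 1 was 614.5 CPM and EYFP 3 was 612.2 CPM. The means were 556.2 ± 51.2 CPM (n = 4, SD) and 639.4 ± 32.5 CPM (n = 3, SD), with a log2 fold change of 0.20 (SE 0.0922), or 1.15-fold.

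The inhibitory receptor Fcgr2b (ENSMUSG00000026656, chr1:170958617-170976547, minus strand), which recruits the phosphatase encoded by Inpp5d, was higher in the ATG7 libraries as well. It was at 272.1, 236.9, 277.6 and 244.0 CPM in EYFP 1 to 4 against 310.5, 328.6 and 365.6 CPM in ATG7 1 to 3. No ATG7 library fell within the EYFP range. The means were 257.6 ± 20.2 CPM (n = 4, SD) and 334.9 ± 28.0 CPM (n = 3, SD), a log2 fold change of 0.38 (SE 0.0893), or 1.30-fold. An antisense gene, Gm38204, overlaps 155 bases of its exons, and the counts of Gm38204 were only 3 to 11 per library.

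The signalling chain Fcer1g (ENSMUSG00000058715, chr1:171229572-171234365, minus strand), which also serves other activating immune receptors, overlapped between the groups. Its values were 235.9, 257.5, 243.7 and 216.6 CPM in EYFP 1 to 4 against 246.6, 291.2 and 304.9 CPM in ATG7 1 to 3. ATG7 1 lay inside the EYFP range, and ATG7 2 and ATG7 3 lay above it. The means were 238.4 ± 17.1 CPM (n = 4, SD) and 280.9 ± 30.5 CPM (n = 3, SD), with a log2 fold change of 0.24 (SE 0.0935).

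Fcgrt (ENSMUSG00000003420, chr7:45092990-45103851, minus strand), the heavy chain of the recycling receptor, had the lower mean in ATG7, unlike the other members of the group. It was at 107.6, 113.2, 114.8 and 100.7 CPM in EYFP 1 to 4 against 97.48, 98.21 and 113.1 CPM in ATG7 1 to 3. ATG7 1 and ATG7 2 were just below the EYFP range and ATG7 3 was within it. The means were 109.1 ± 6.38 CPM (n = 4, SD) and 102.9 ± 8.83 CPM (n = 3, SD), with a log2 fold change of -0.08 (SE 0.0798). Without ATG7 1 this became -0.05, without ATG7 2 it was also -0.05, and without ATG7 3 it was -0.16.

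**Figure D1:**
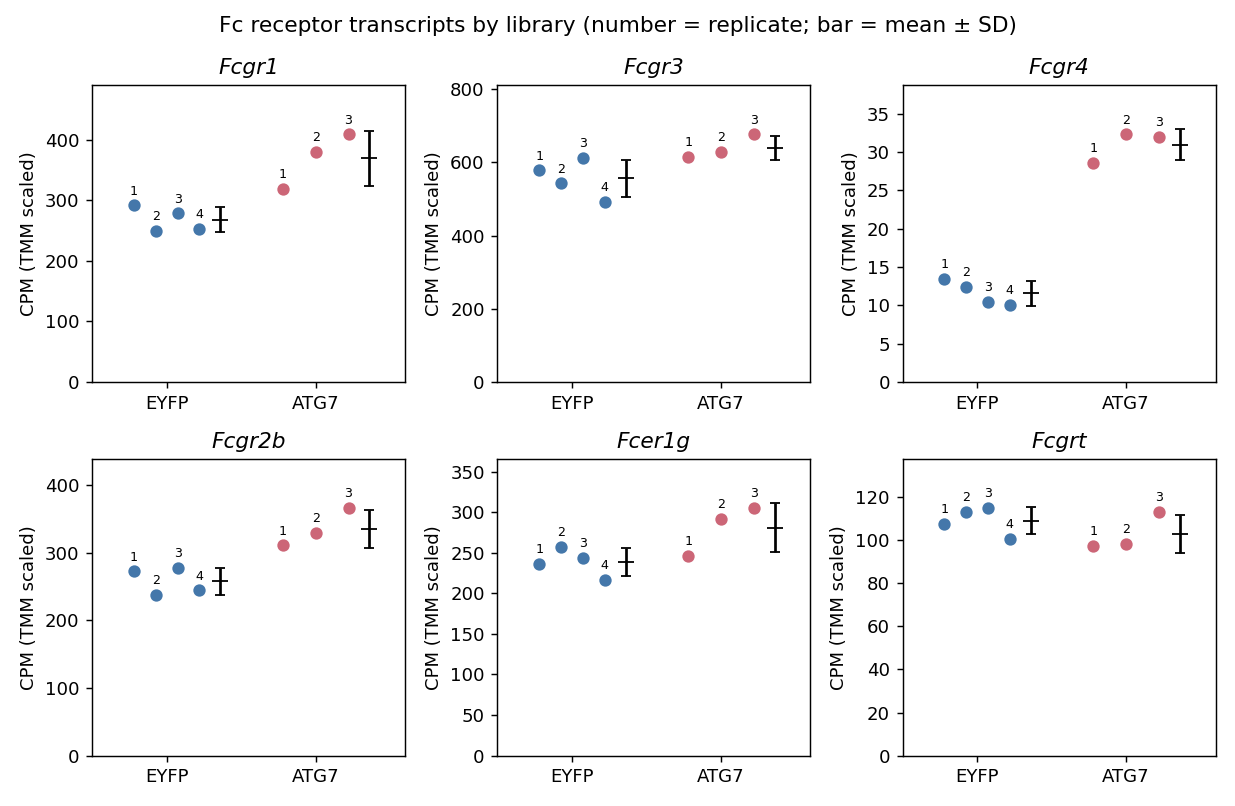
Level in CPM (TMM scaled, vertical axis from 0) of the 6 Fc receptor genes in each EYFP and ATG7 library; numbers beside points are replicates, and bars are the mean ± SD of 4 EYFP and 3 ATG7 libraries. The Fcgr4 panel shows the widest gap as a ratio, from 10.04 to 13.44 CPM in EYFP against 28.63 to 32.31 CPM in ATG7, while Fcer1g and Fcgrt overlap.

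Counted together, 4 of the 6 genes (Fcgr1, Fcgr2b, Fcgr3 and Fcgr4) did not overlap between the groups, all with ATG7 above. Over all genes tested, 11.2% did not overlap, 6.33% with ATG7 above and 4.91% with ATG7 below. For the 6 themselves no test call is given. The median log2 fold change of the 6 was 0.31, and that of all genes tested was -0.00365. Because the genes were chosen with this contrast in view, nothing is read from these counts. RNA of a bulk library does not separate cell number from content, so fewer cells of a type and less RNA per cell cannot be told apart in any of these values.

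Because the 4 receptors differed by unequal amounts, the make-up of the receptor pool also differed between the groups. Fcgr4 made up 1.16%, 1.19%, 0.882% and 1.01% of the summed CPM of Fcgr1, Fcgr2b, Fcgr3 and Fcgr4 in EYFP 1 to 4 against 2.25%, 2.36% and 2.16% in ATG7 1 to 3. Its share was thus higher in each ATG7 library than in any EYFP library, with means of 1.06% ± 0.145 (n = 4, SD) and 2.26% ± 0.101 (n = 3, SD), yet it remained the smallest of the 4. Set against Fcgr3 alone, its CPM was 2.09% ± 0.290 (n = 4, SD) in EYFP and 4.85% ± 0.262 (n = 3, SD) in ATG7.

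The balance of activating to inhibitory receptor transcripts overlapped between the groups. The summed CPM of Fcgr1, Fcgr3 and Fcgr4 was 3.24, 3.40, 3.25 and 3.09 times that of Fcgr2b in EYFP 1 to 4 against 3.10, 3.16 and 3.06 times in ATG7 1 to 3. Within that balance, Fcgr3 over Fcgr2b was lower in each ATG7 library, at 1.98, 1.91 and 1.85, than in any EYFP library, at 2.12, 2.29, 2.21 and 2.02. These are the genes that share the coding run shown above, and the effect of shared reads on their ratio was not tested. Fcgr1 over Fcgr2b overlapped, at 1.04 ± 0.0296 (n = 4, SD) in EYFP and 1.10 ± 0.0663 (n = 3, SD) in ATG7.

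The ratio of the receptors to the signalling chain they use overlapped between the groups. The summed activating receptors were 3.51 ± 0.282 (n = 4, SD) times Fcer1g in EYFP and 3.71 ± 0.171 (n = 3, SD) times in ATG7, and the libraries overlapped. Fcer1g was 72.0% ± 1.68 (n = 4, SD) of Tyrobp, the adaptor of the TREM2 receptor with the same kind of activating motif, in EYFP and 73.9% ± 2.90 (n = 3, SD) in ATG7, again with overlap. The ratio of Fcgrt to its partner B2m did not overlap between the groups. Fcgrt was 6.84%, 7.13%, 10.1% and 7.96% of the B2m level in EYFP 1 to 4 against 4.76%, 4.40% and 4.69% in ATG7 1 to 3. Each ATG7 library was below every EYFP library in that ratio.

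Levels were compared between genes per length, as CPM per kb of exon sequence, since longer transcripts give more reads. Fcgr3 was the highest of the 6, at 320.0 ± 29.5 CPM per kb (n = 4, SD) in EYFP and 368.0 ± 18.7 (n = 3, SD) in ATG7. Fcer1g was next at 273.0 ± 19.5 and 321.0 ± 34.9, and Fcgr1 followed at 103.0 ± 7.90 and 143.0 ± 17.7 CPM per kb. The ranges of Fcgr3, 284.0 to 389.0, and of Fcer1g, 248.0 to 349.0, overlapped across libraries, although within each of the 7 libraries Fcgr3 was 1.06 to 1.26 times Fcer1g.

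Lower in the order came Fcgrt at 51.9 ± 3.03 (n = 4, SD) and 49.0 ± 4.20 (n = 3, SD) CPM per kb, and Fcgr2b at 44.5 ± 3.49 and 57.8 ± 4.84. The order of these neighbours differed between the groups: Fcgrt was above Fcgr2b in the 4 EYFP libraries and below it in the 3 ATG7 libraries. With the longest coding transcript as the length (3544 bases for Fcgr2b in place of 5790), Fcgr2b was above Fcgrt in 7 of 7 libraries, so their order rests on the length used. Fcgr4 was the lowest of the 6 at 9.22 ± 1.30 CPM per kb (n = 4, SD) in EYFP and 24.7 ± 1.63 (n = 3, SD) in ATG7, and remained lowest with either length in all 7 libraries.

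**Figure D2:**
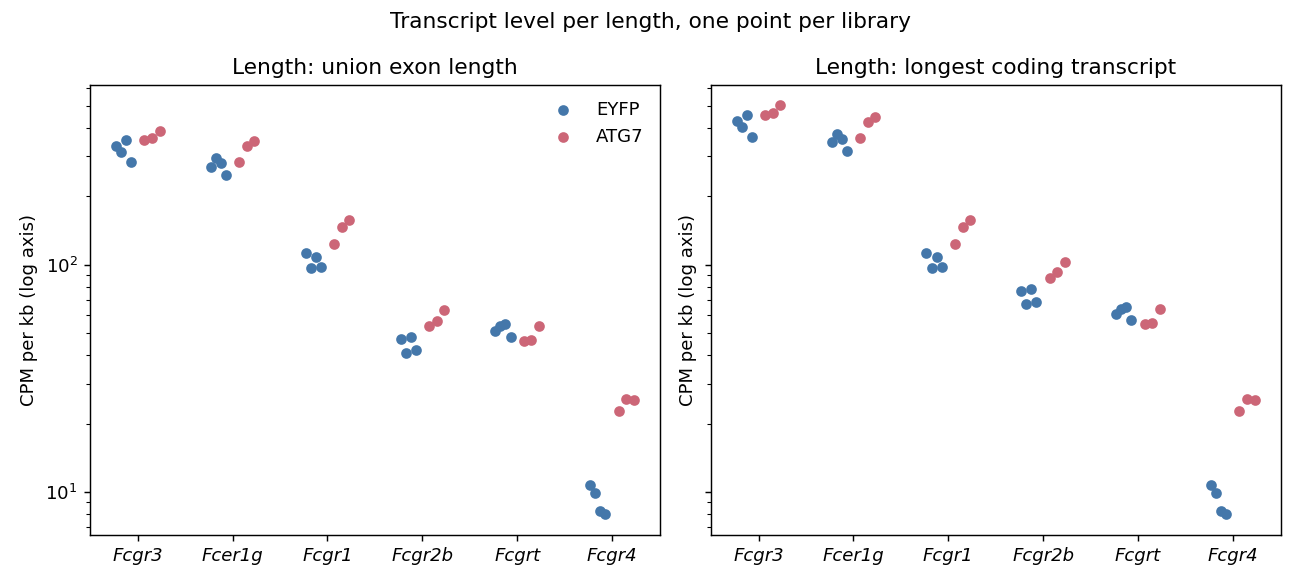
Level per length (CPM per kb, log axis) of the 6 genes, with 1 point per library, using all exon bases of a gene (left) or its longest coding transcript (right). Fcgr3 and Fcer1g lead at 248.0 CPM per kb or more on the left, and Fcgr4 is lowest, at 7.99 to 25.7 CPM per kb; Fcgr2b and Fcgrt change places between the panels in the EYFP libraries.

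The 6 genes were also set against the geometric mean CPM of the 9 microglia markers. That marker level was 1577, 1394, 1672 and 1453 CPM in EYFP 1 to 4 against 1381, 1649 and 1681 CPM in ATG7 1 to 3, overlapping between the groups. Fcgr4 was 0.852%, 0.891%, 0.622% and 0.691% of it in EYFP 1 to 4 against 2.07%, 1.96% and 1.91% in ATG7 1 to 3. Fcgr1 was 18.5%, 17.9%, 16.6% and 17.4% of the marker level in EYFP 1 to 4 against 23.1%, 23.0% and 24.3% in ATG7 1 to 3. For both genes the gap between the groups was wider than the spread within either group.

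The inhibitory receptor varied least of the 6 genes, relative to the marker level, among the EYFP libraries. Fcgr2b was 17.2%, 17.0%, 16.6% and 16.8% of it in EYFP 1 to 4, a coefficient of variation of 1.62% against 7.84% in plain CPM, and 22.5%, 19.9% and 21.8% in ATG7 1 to 3. All ATG7 values of Fcgr2b were again the higher ones. Fcgr3, which did not overlap in plain CPM, did overlap on this scale: it was 36.6%, 38.9%, 36.6% and 33.9% in EYFP 1 to 4 against 44.5%, 38.1% and 40.2% in ATG7 1 to 3. Fcer1g and Fcgrt overlapped on both scales, and in each of them EYFP 2, at 18.5% and 8.12%, was the highest of the 7 libraries.

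**Figure D3:**
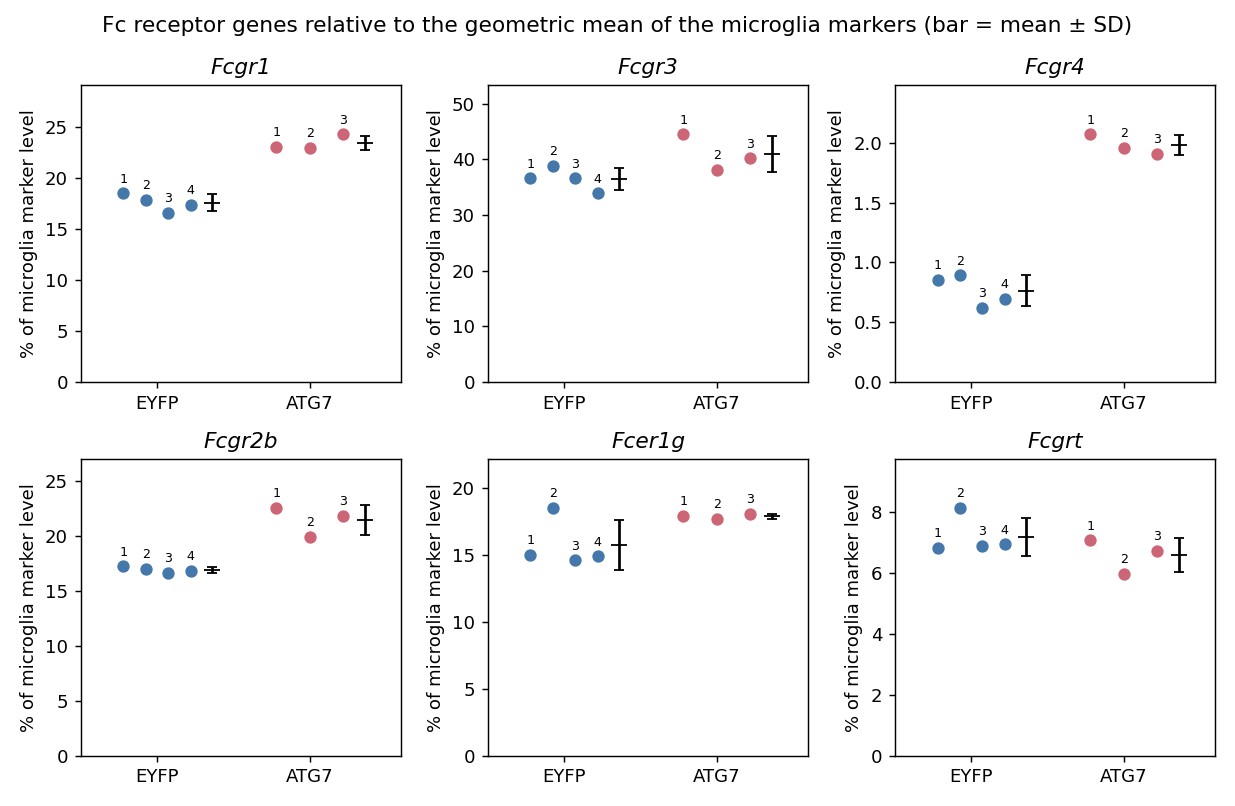
The 6 genes as a percentage of the geometric mean level of 9 microglia markers in each library (vertical axes from 0; numbers are replicates, bars are mean ± SD). Fcgr1, Fcgr2b and Fcgr4 keep a gap between EYFP and ATG7, Fcgr3 does not, and EYFP 2 stands above the other EYFP libraries for Fcer1g (18.5%) and Fcgrt (8.12%).

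Other leukocytes carry Fc gamma receptors too, so their marker lists were read in the same libraries. Summed neutrophil markers were at 48.6 to 114 CPM in EYFP and at 27.4, 33.6 and 163.2 CPM in ATG7 1 to 3, and all 9 were detected in all libraries. Fcgr4 in those ATG7 libraries was at 28.63, 32.31 and 32.02 CPM. Border macrophage and monocyte markers, 10 of 10 detected, summed to 560.5 to 669.4 CPM in EYFP and 596.4 to 691.3 CPM in ATG7.

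Within that list the monocyte gene Plac8 was at 1.80 to 4.25 CPM in EYFP and at 4.70, 11.4 and 10.3 CPM in ATG7 1 to 3, and Ly6c2 at 1.55 to 4.40 CPM in EYFP and 3.02, 6.41 and 13.5 CPM in ATG7 1 to 3. Both were singled out after their values were seen. Ccr2, on the same list, overlapped, at 17.4 to 23.4 CPM in EYFP and 17.7 to 23.7 CPM in ATG7. Of the 10 markers of the list, 6 had a log2 fold change above 0 and 4 below. Natural killer (NK) and T cell markers were the single list whose sum did not overlap, at 3.02 to 7.32 CPM in EYFP and 8.52 to 19.8 CPM in ATG7; 10 of 10 markers had a log2 fold change above 0. By edgeR none of the 84 tested markers of all cell type lists passed. Of the 84, 16 had an unadjusted p under 0.05, against 11.98% of all genes tested. In the NK and T cell list there were 7 of these 16. By DESeq2 4 passed (Nkg7, Trac, Plac8 and Slc7a10), and by limma-voom none. Of all 19199 genes tested, 585 passed by DESeq2 and 208 by limma-voom. The part of neutrophils, monocytes, NK cells or T cells in the Fc receptor values was not tested.

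The members also varied differently among themselves. After each gene was centred on its mean log2 CPM over the 7 libraries, Fcgr1 and Fcgr2b, on different chromosomes, were the closest pair, with a root mean square difference of 0.067 log2 units. Fcer1g and Fcgr3 followed at 0.0967, and Fcgr4 and Fcgrt were farthest apart at 0.761. Fcgr4 stood at least 0.497 from each of the others. The centring was over both groups, so these distances contain the group differences on which the genes were selected. Within ATG7 the ratio of Fcgr1 to Fcgr2b was 1.03, 1.16 and 1.12.

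By the same measure, the nearest of the 10259 genes with a mean of at least 10 CPM were listed for each of the 6. Nearest to Fcgr4 was Hcar2, a receptor for ketone bodies and niacin, at 0.116, and Gm12250 was at 0.140. Hcar2 was at 7.18 ± 0.843 CPM (n = 4, SD) in EYFP and 19.5 ± 1.32 CPM (n = 3, SD) in ATG7, a log2 fold change of 1.44 (SE 0.115) beside the 1.42 of Fcgr4. Nearest to Fcgr1 were Fam111a at 0.0476, Spint1 at 0.0514 and Pik3ap1 at 0.0534.

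For Fcgr2b the nearest were Tap2, a subunit of the antigen peptide transporter, at 0.042, Fam111a at 0.0467 and Hlx at 0.0512. Fam111a was thus near to both Fcgr1 and Fcgr2b. For Fcgr3 they were Gm38317 at 0.0373, the tetraspanin Cd81 at 0.0413 and Myd88, an adaptor of Toll-like receptors, at 0.0439.

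For Fcer1g they were the actin-nucleating subunit Arpc1b at 0.0353, Arhgdib at 0.0395 and Tyrobp at 0.0417. For Fcgrt they were Sypl at 0.0207, Dhrs7 at 0.0282 and Haus2 at 0.0292. These genes were found by likeness over the same 7 libraries, so their own group differences were not tested here.

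The genes around the receptors were read beside all genes tested, of which 0.755% passed the edgeR test and 11.98% had an unadjusted p under 0.05. Of all 19199 genes tested, DESeq2 called 585 and limma-voom called 208. Fcgr4 lies 42.37 kb from the start of Fcgr2b and 46.02 kb from that of Fcgr3. Within 500 kb of the Fcgr4 start, 31 genes outside the 6 described here were tested, and none passed the edgeR test. Of these 31, 4 had an unadjusted p under 0.05, 1 passed by DESeq2 (Nectin4) and none by limma-voom. With the windows around the 4 chromosome 1 genes joined and those genes left out, 37 genes were tested, 17 had a log2 fold change above 0 and 20 below, and the median was -0.00667. The gene that passed among them was Ly9, a SLAM-family receptor at -373.0 kb (upstream) from the Fcer1g start, which rose by 1.01 on the log2 scale, from 28.4 ± 3.75 CPM (n = 4, SD) to 57.1 ± 2.45 CPM (n = 3, SD) (SE 0.0997, edgeR adjusted p = 0.00251). Around Fcer1g, 8 of the 35 genes tested had an unadjusted p under 0.05, DESeq2 called 4 (Cd48, Ly9, Nectin4 and Slamf7) and limma-voom called 1 (Ly9). None of 47 tested genes around Fcgr1 and none of 57 around Fcgrt passed the edgeR test, with 7 at an unadjusted p under 0.05 around each. DESeq2 called 4 around Fcgr1 (Ankrd35, Car14, Ciart and Sv2a) and 3 around Fcgrt (Cpt1c and Myh14 among them), and limma-voom called 2 around Fcgr1 (Ciart and Sv2a) and none around Fcgrt.

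**Figure D4:**
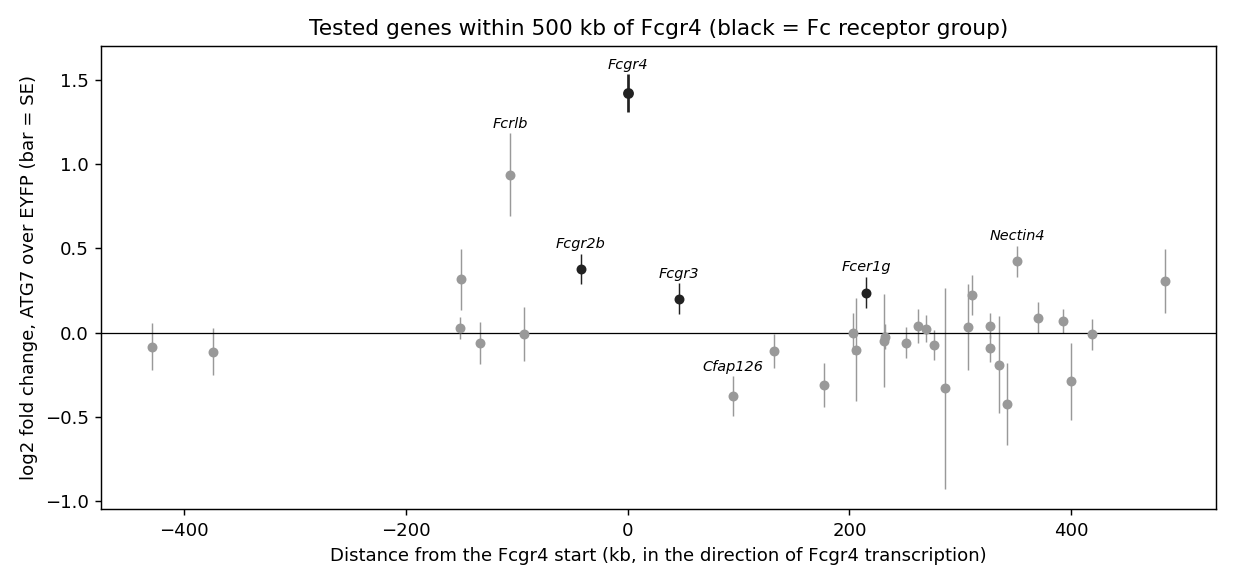
Log2 fold change, ATG7 over EYFP (vertical axis, bars are SE), of the tested genes within 500 kb of the Fcgr4 start against distance in kb; the 4 Fc receptor genes are in black. Fcgr4 stands at 1.42, Fcgr2b at 0.38, Fcgr3 at 0.20 and Fcer1g at 0.24; Fcrlb at 0.94 has a wide SE and did not pass, and most other neighbours lie near 0.

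Beyond the 6 genes, lists of the pathway were tested in the same fit, and 4 of 87 tested genes passed as higher in ATG7 (B2m, Stat2 and Irf1 among them) and 0 as lower. Of these 87, 66 had a log2 fold change above 0 and 21 below, and their median was 0.14 against -0.00365 over all genes. At an unadjusted p under 0.05 there were 31 of 87, against 11.98% of all genes. The number that passed at the edgeR adjusted p, 4 with all libraries, depended on the libraries used. It fell to 2 without EYFP 2 (B2m among them), 2 without EYFP 3 (Stat2 among them), 1 without EYFP 4, 1 without ATG7 2, and 2 without ATG7 3 (Cebpb among them). Without EYFP 1 the number was 6, with Cybb and Irf9 added, and without ATG7 1 it was 3 (Cybb and Stat2 among them). DESeq2 called 8, adding Cebpb, Cybb, Fgr and Irf9 to the 4, and limma-voom called 6, adding Cybb and Irf9. By neither tool was a gene of the other receptors, adaptors, actin machinery or inhibitors called. Over all 19199 genes tested, edgeR called 0.755%, DESeq2 called 585 genes and limma-voom called 208.

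Of 13 other Fc and immunoglobulin receptors, 5 were abundant enough to test and none passed the edgeR test, with 2 of the 5 at an unadjusted p under 0.05. The most abundant was Fcrls, a microglial Fc receptor-like molecule, at 1533 ± 174 CPM (n = 4, SD) in EYFP and 1479 ± 141 CPM (n = 3, SD) in ATG7 (edgeR adjusted p = 0.905). Trim21, a receptor for antibody inside the cell, was at 31.63 ± 1.67 and 36.63 ± 0.299 CPM, a log2 fold change of 0.21 (edgeR adjusted p = 0.257). Fcrlb, a receptor-like gene at -106.0 kb (upstream) from the Fcgr4 start, was low, at 0.672 ± 0.0484 and 1.28 ± 0.234 CPM, and did not pass (log2 fold change 0.94, edgeR adjusted p = 0.140).

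The 8 untested receptors had few counts. They were the IgE receptor chains Fcer1a (0 to 5 counts per library) and Ms4a2 (0 to 2), Fcer2a (1 to 5), Fcamr (0 to 3), the epithelial immunoglobulin transporter Pigr (0 to 1), Fcrla (2 to 16), Fcrl5 (0 to 13) and Fcrl6 (0 to 9). Fcer1g was therefore abundant in libraries where the IgE receptor chains that also use it were at no more than 5 counts.

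Of the 4 partner chains, B2m, the light chain that pairs with Fcgrt and with class I molecules, rose. It was at 1572, 1588, 1135 and 1266 CPM in EYFP 1 to 4 against 2046, 2233 and 2414 CPM in ATG7 1 to 3, with no overlap, a log2 fold change of 0.68 (SE 0.128, edgeR adjusted p = 0.0372). The call depended on the libraries used: the edgeR adjusted p was 0.0555 without EYFP 3, 0.141 without EYFP 4, 0.0546 without ATG7 1, 0.147 without ATG7 2 and 0.203 without ATG7 3, and its range over all alternatives was 1.81e-05 to 0.442. Tyrobp was at 331.6 ± 30.0 CPM (n = 4, SD) and 379.7 ± 29.8 CPM (n = 3, SD), a log2 fold change of 0.20 (edgeR adjusted p = 0.450).

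None of the 10 proximal tyrosine kinases passed the edgeR test, although 5 had an unadjusted p under 0.05, and their median log2 fold change was 0.21. Syk, which docks on the phosphorylated chain, was at 204.9 ± 28.2 CPM (n = 4, SD) in EYFP and 237.6 ± 14.5 CPM (n = 3, SD) in ATG7 (log2 fold change 0.21, edgeR adjusted p = 0.475). The Src-family kinases that phosphorylate the chain had log2 fold changes of 0.20 for Lyn and 0.64 for Fgr, with edgeR adjusted p of 0.484 and 0.162.

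Further downstream, none of 24 adaptors and second messenger enzymes and none of 19 genes of the phagocytic actin machinery passed the edgeR test, with 4 and 5 at an unadjusted p under 0.05. Their median log2 fold changes were 0.14 and 0.04. The gene with the smallest p among the first was the kinase Prkcd (log2 fold change 0.34, edgeR adjusted p = 0.217), and among the second Arpc1b (0.22, edgeR adjusted p = 0.325).

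The phagocyte NADPH oxidase makes the oxidative burst that follows receptor engagement. Its 5 subunits all had a log2 fold change above 0 and none passed the edgeR test, with 3 at an unadjusted p under 0.05. Cybb, the catalytic subunit, was at 75.61, 73.74, 53.26 and 60.67 CPM in EYFP 1 to 4 against 87.54, 110.6 and 119.1 CPM in ATG7 1 to 3. Its groups did not overlap, with a log2 fold change of 0.68 (SE 0.137) and an edgeR adjusted p of 0.0571. This adjusted p was 0.0330 without EYFP 1 and 0.0294 without ATG7 1, and ranged from 0.000322 to 0.435 over all alternatives.

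Among 12 inhibitors of the pathway none passed the edgeR test, with 3 at an unadjusted p under 0.05 and a median log2 fold change of 0.11. Inpp5d, the phosphatase recruited by Fcgr2b, was at 820.7 ± 123 CPM (n = 4, SD) and 828.2 ± 52.0 CPM (n = 3, SD), a log2 fold change of 0.01 whose sign turned under several alternatives (edgeR adjusted p = 0.982). Ptpn6, a phosphatase bound by inhibitory receptors, had a log2 fold change of 0.23 (edgeR adjusted p = 0.330). Fcgr2b was thus higher in every ATG7 library while the transcript of its phosphatase overlapped.

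Transcription factors that act on Fc receptor genes were the list with the most called genes: 3 of 8 rose, all 8 had a log2 fold change above 0, and the median was 0.46. Stat2, part of the complex that binds interferon-stimulated response elements, was at 69.25, 48.56, 44.88 and 54.83 CPM in EYFP 1 to 4 against 94.61, 110.1 and 106.9 CPM in ATG7 1 to 3. No ATG7 library overlapped the EYFP range, in which EYFP 3, the library with Xist, was lowest. Stat2 rose by 0.93 on the log2 scale (SE 0.131, edgeR adjusted p = 0.0137). The edgeR adjusted p was 0.0522 without EYFP 2, 0.0574 without EYFP 4, 0.0753 without ATG7 2 and 0.0843 without ATG7 3, within a range of 2.43e-08 to 0.219 over all alternatives.

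Irf1, which binds the same element, was at 54.58, 42.36, 43.19 and 46.75 CPM in EYFP 1 to 4 against 62.73, 62.56 and 77.18 CPM in ATG7 1 to 3, and passed narrowly (log2 fold change 0.53, SE 0.105, edgeR adjusted p = 0.0483). Its edgeR adjusted p was 0.0930 without EYFP 2, 0.107 without EYFP 3, 0.145 without EYFP 4, 0.0720 without ATG7 1, 0.103 without ATG7 2 and 0.237 without ATG7 3, so the call held in 1 of the 7 fits that left out a library. This adjusted p was 0.0504 with DESeq2 size factors, 0.0703 with library size alone, 0.0534 with upper quartile factors, 0.0535 with a mean of at least 1 CPM and 0.188 with scaling to the microglia markers, and it ranged from 0.000991 to 0.371 over all alternatives. Spi1, the PU.1 gene that macrophage identity depends on, was at 188.4 ± 9.86 and 200.7 ± 22.2 CPM and did not pass (edgeR adjusted p = 0.754).

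**Figure D5:**
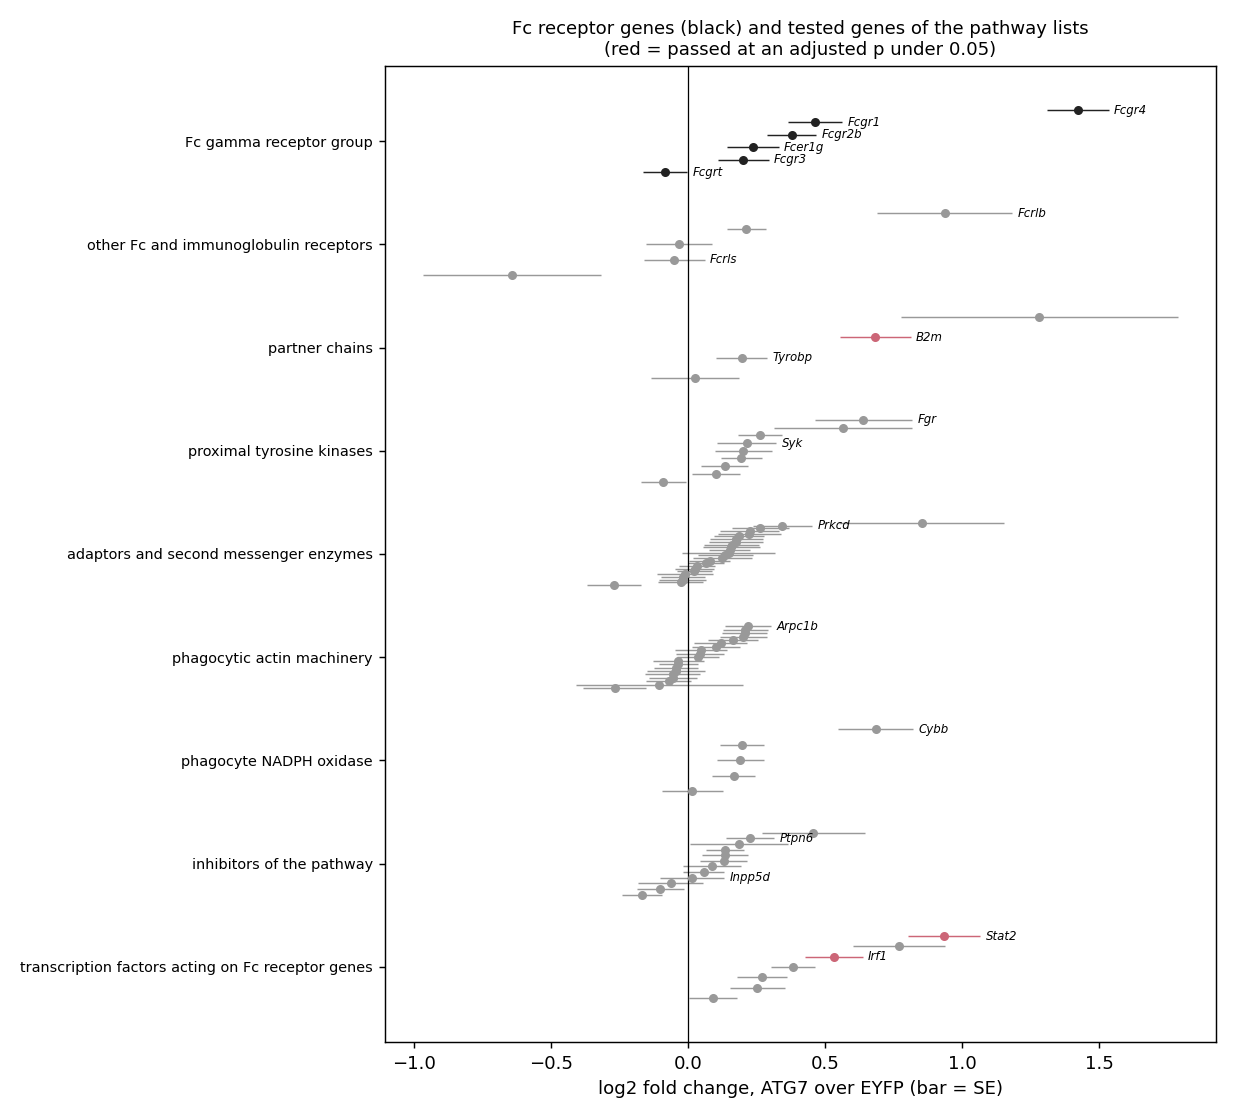
Log2 fold change, ATG7 over EYFP (horizontal axis, bars are SE), of the 6 Fc receptor genes (black) and of the tested genes of 8 pathway lists (grey, or red where the edgeR adjusted p was under 0.05). The red points are B2m at 0.68, Stat2 at 0.93 and Irf1 at 0.53, and genes whose results are left out of the text are not drawn; kinases, adaptors, actin genes, oxidase subunits and inhibitors have no red point.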

How the data were processed

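The authors deposited raw counts per gene, 55401 rows and 7 columns of whole numbers. Per the submitters' processing notes, the tools were fastp 0.20.1, HISAT2 2.0.5 and featureCounts, and the builds mm10 and GRCm38. The strand setting, the handling of reads that fit several genes, and the annotation release are not given in the sources used here. Column names gave each library through its label, with 0 unmatched columns of sample values. Symbols and gene positions came from GENCODE M21 (GRCm38), which matched 55141 identifiers.

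ATG7 and EYFP libraries were compared on the deposited counts in edgeR 4.0.16 (R 4.3.3), by a two-sided quasi-likelihood test with no covariate. Scaling was by TMM, low genes were removed with filterByExpr, dispersion was fitted robustly, and p-values were adjusted by Benjamini-Hochberg over all 19199 genes tested, with a threshold of 0.05. The SE was taken as the size of the log2 fold change over the root of the F statistic. For log2 CPM the prior count was 2. A floor of 3 counts equals 0.0543 to 0.0835 CPM per library. No molecular identifiers are mentioned, so this covers counting error only. Libraries of a group differed by chi-square values of 19.2 to 41.3 per degree of freedom, beyond sampling noise, and each was counted as a replicate.

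The 6 genes and all gene lists were chosen with earlier results of these data known. Named were the 6 genes, passing genes of each pathway list (or the gene with the smallest p), certain pathway genes always, the 3 genes nearest in pattern to each of the 6, and passing genes within 500 kb. Some genes chosen by these rules are not reported here. Promoter sequences are RefSeq's on GRCm38.p6, and the shared run is from GENCODE M21 transcripts. The fit was tested on simulated data: of genes changed 1.5-fold, 44.9% of 198 were called among 18908 tested, at 2-fold 63% of 192 among 18877, and at 3-fold 80.1% of 191 among 18888. Unchanged genes made up 9.2%, 7.6% and 7.8% of those calls.

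Alternatives were other scalings and filters, DESeq2 1.42.0, voom of limma 3.58.1, a replicate block, each library left out, and the counts of Fcgr2b, Fcgr3 and Fcgr4 summed. Scaling to the microglia markers was chosen after seeing the data.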

Additional observations from a re-analysis of the deposited data

Results flagged for a closer look

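Among the 4 EYFP libraries, EYFP 2 stood apart from the other libraries in 2 of the values set against the microglia marker level. Fcer1g was 18.5% of that level in EYFP 2 against 14.6% to 15% in the other EYFP libraries, and Fcgrt was 8.12% against 6.82% to 6.93%. In plain CPM neither gene stood apart in EYFP 2, at 257.5 CPM for Fcer1g and 113.2 CPM for Fcgrt. The marker level itself was lowest of the EYFP libraries in EYFP 2, at 1394 CPM. Chance would give 2.55 of the 51 values compared in this way, since about 1 in 20 groups is marked by chance.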

How the results depend on the processing

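The number of genes that passed was 145 (132 higher, 13 lower). It was 297 (234 higher, 63 lower) without a filter, 585 (407 higher, 178 lower) with DESeq2, 62 (59 higher, 3 lower) with scaling to the microglia markers, and from 28 to 277 when a library was left out: 277 without EYFP 1, 94 without EYFP 2, 30 without EYFP 4, 28 without ATG7 2 and 30 without ATG7 3. The 4 pathway genes became 8 without a filter, 8 with DESeq2, 2 with scaling to the microglia markers, and 1 to 6 with a library left out. For the 6 Fc receptor genes only log2 fold changes are given below, because they were selected on this contrast. Why these counts moved was not tested. With the replicate block, 0 genes and 0 pathway genes passed. The labels do not say that a replicate number marks a shared mouse or day. Same-numbered libraries deviated from their group means with correlations of -0.0609, -0.182 and 0.0664. With so few libraries per group these values cannot decide whether the numbers pair the libraries. The block also leaves few degrees of freedom for the spread. No library of ATG7 correlated best with its own number.

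With the counts of Fcgr2b, Fcgr3 and Fcgr4 summed, the log2 fold change was 0.28; Fcgr4 is a small share of that sum, so this value says nothing about its reads. The direction of each of the 6 genes held under all alternatives. When a library was left out, log2 fold changes ranged from 0.38 to 0.56 for Fcgr1, 0.15 to 0.25 for Fcgr3, 1.36 to 1.5 for Fcgr4, 0.31 to 0.43 for Fcgr2b, 0.17 to 0.32 for Fcer1g and -0.16 to -0.05 for Fcgrt. Fcrls ranged from -0.106 (without ATG7 3) to 0.0262 (without ATG7 1), and was 0.0209 without EYFP 3. Inpp5d turned to -0.00806 with library size alone, -0.00368 with voom, -0.0153 with the replicate block, -0.0168 with scaling to the microglia markers, -0.0641 without EYFP 2, -0.0264 without EYFP 4 and -0.0376 without ATG7 2, within a range of -0.0641 to 0.0996 with a library left out. Over the named pathway genes together, 246 of the values kept their direction and their side of the threshold, 25 lost the call, 7 gained it and 9, those of Fcrls and Inpp5d, changed sign. The low counts of Fcer1a, Ms4a2 and Pigr limit what can be said of them.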

Other observations

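The ligands of these receptors are IgG antibodies, and their heavy chain transcripts were read in the same libraries. Ighg1 was at 0 to 0.127 CPM, Ighg2b at 0.0245 to 0.325 CPM, Ighg2c at 0 to 2.60 CPM and Ighg3 at 0 to 2.68 CPM. The highest Ighg2c values, 1.56, 2.06 and 2.60 CPM, were in EYFP 1, EYFP 4 and ATG7 3, and the highest Ighg3 value was in EYFP 4, so neither followed the groups. Ighg2b had 6, 3, 3 and 1 counts in EYFP 1 to 4 and 13, 9 and 15 counts in ATG7 1 to 3, more in each ATG7 library, while its CPM met at 0.164 in EYFP 1 and ATG7 2. The IgM heavy chain Ighm was far higher, at 221.0 to 253.0 CPM in EYFP and 196.0 to 247.0 CPM in ATG7. No immunoglobulin protein was measured, and the source of the Ighm reads was not tested.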
